A study of Saccharomyces cerevisiae with 14 samples.

Results

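Peaks of Rad52 around the 16 budding yeast centromeres are described here across 14 libraries of chromatin immunoprecipitation and sequencing. A peak was a member if it overlapped, by at least 1 bp, the 10 kb on either side of a centromere start, with coordinates on the sacCer3 build. The windows make up 2.65% of the nuclear genome and held 345 of the 7176 nuclear peaks, or 4.81%. Of these, 194 contained the centromere start itself and 151 lay beside it. The choice of members used position alone, so numbers, widths and scores were free to vary. Which genes lie in the windows is fixed by that choice.

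All libraries were precipitated with an antibody to Rad52, and the series uses its peaks as a readout of damage from DNA-RNA hybrids. In a strain background labelled 288C, 2 libraries each came from WT, Sen1-AID, h1D-h2D Top1-AID, h1D-h2D and also h1D-h2D Sen1-AID, and 1 from Top1-AID. All 11 of these, WT included, received auxin (0.5 µM for 4 h), which degrades a protein fused to the auxin-inducible degron AID. The symbol h1D-h2D was read as loss of the RNase H genes RNH1 and RNH201, which the design names. For the libraries titled h1D-h2D Top1-AID, the genotype field reads h1D-h2D_Top1, with no AID. Gal-HO galactose (2 libraries, 2% galactose) and Gal-HO dextrose (1 library) come from a background labelled JKM, carry an HO endonuclease under galactose control, and got no auxin. The labels do not say whether replicates come from separate cultures, and p-values measure only the spread between these samples, which may be technical.

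The centromere of budding yeast is a short DNA element on which a specialised nucleosome and the kinetochore assemble, and the chromatin around it is rich in cohesin. Rad52 acts in homologous recombination and anneals DNA strands during repair. RNase H and the helicase Sen1 remove DNA-RNA hybrids, and Top1 relaxes the supercoils that transcription leaves.

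Between 254 and 731 nuclear peaks were listed per library, and read depth is unknown. No library of input DNA or of an unspecific antibody was analysed here, and whether a control entered the peak calling is not given in the sources used here. Signal that is not specific to Rad52 therefore cannot be told apart from Rad52 binding at any centromere. The combined mutants, meaning h1D-h2D joined with either Sen1-AID or Top1-AID (4 libraries), had 254 to 305 peaks, against 454 to 731 in the other 7 auxin libraries. A lower number of centromere peaks thus goes with a shorter list, and its part in the results was not tested beyond the comparison at equal list lengths given below.

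Most centromeres lay inside a Rad52 peak, with 194 such peaks over the 16 centromeres and 14 libraries. All 16 centromere starts were inside a peak in 9 of the 14 libraries. These were WT replicate 2, both Sen1-AID libraries, both h1D-h2D libraries, Top1-AID, h1D-h2D Top1-AID replicate 2 and both Gal-HO galactose libraries. WT replicate 1 had 15, lacking the one on chromosome XIV. The libraries with the fewest were Gal-HO dextrose with 11, h1D-h2D Top1-AID replicate 1 with 10, and h1D-h2D Sen1-AID with 8 and 6. For comparison, peaks covered between 3.96% and 15.6% of the genome outside the windows.

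**Figure D1:**
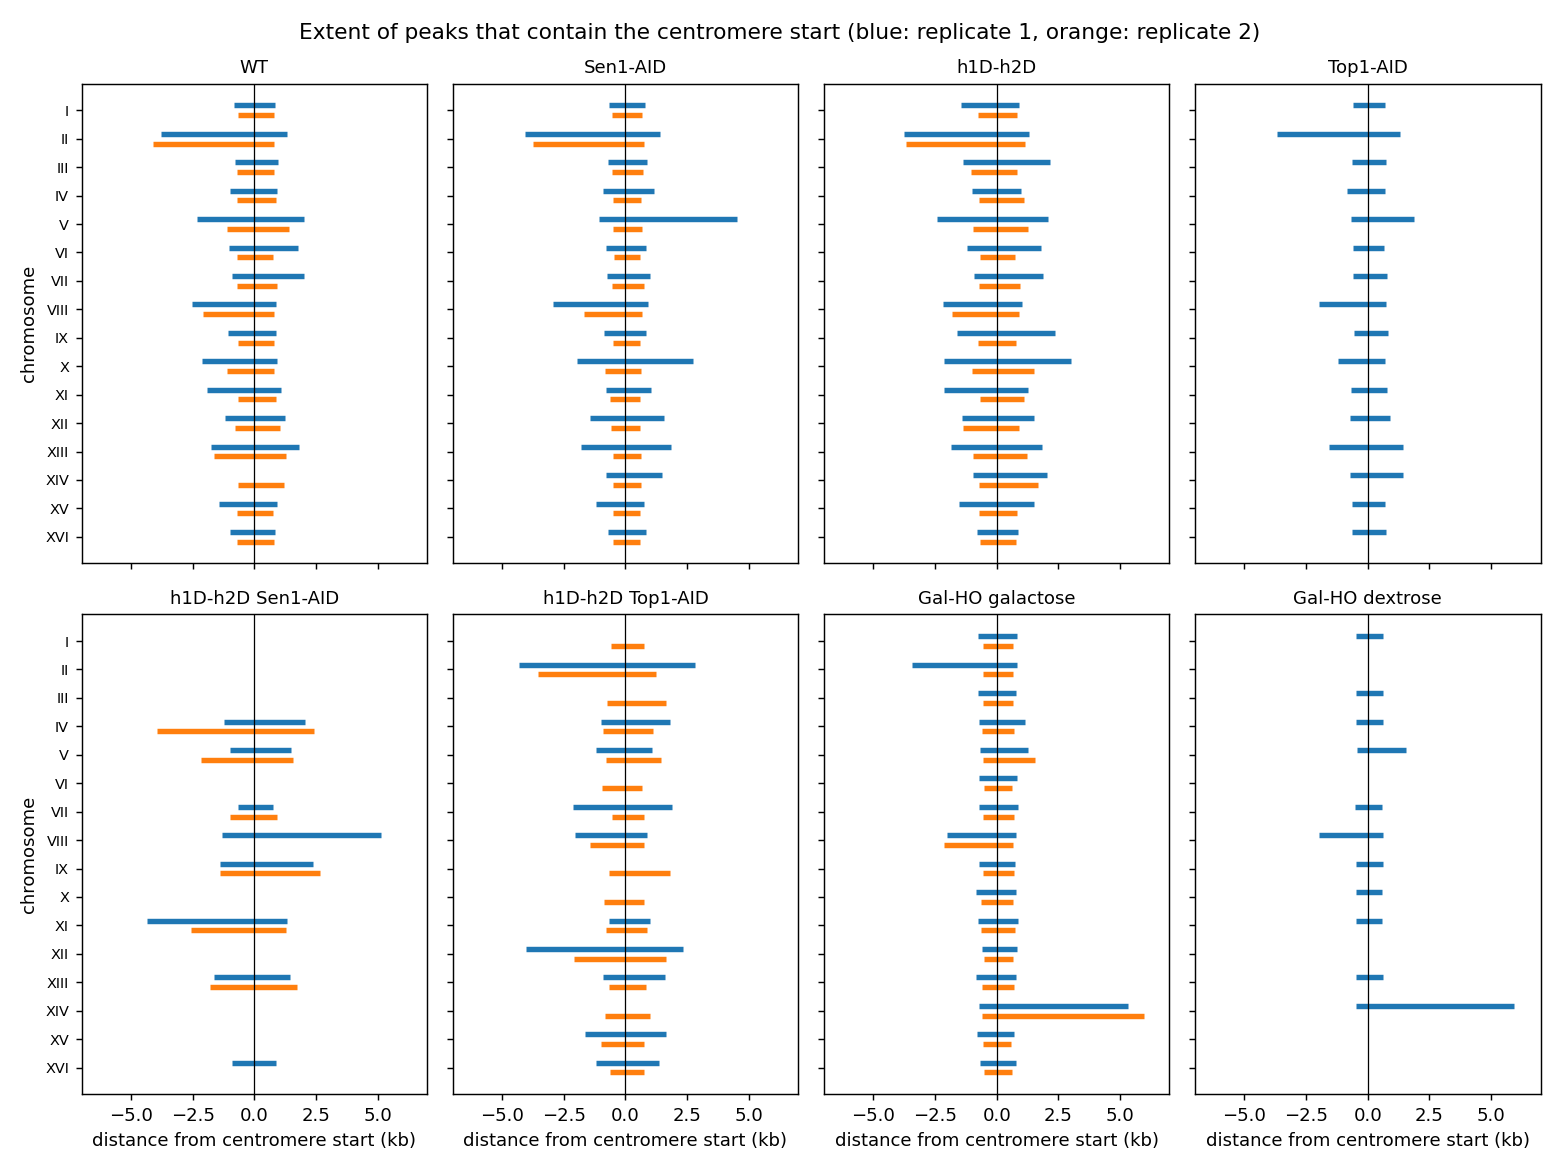
Each bar is a peak that contains the centromere start, drawn by its reach in kb to the left and right of that start (x axis) for each chromosome (y axis), in 8 panels for the 8 groups, with replicate 1 in blue and replicate 2 in orange. Most bars straddle the start evenly, bars on chromosomes II and VIII reach to the left and those of Gal-HO on XIV to the right, and h1D-h2D Sen1-AID lacks bars at 8 centromeres in both libraries.

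The peaks that contain the centromere start had midpoints close to it, which follows in part from choosing them for containing it. In 10 of 14 libraries the median midpoint of these peaks lay between 13.5 and 71.5 bp to the right of the centromere start. In the other 4 it lay at -80 bp (WT replicate 1), -24.5 bp (h1D-h2D Top1-AID replicate 1), and 159 and -172 bp (h1D-h2D Sen1-AID). Their median width was 2788 and 1620.5 bp in WT, 2027.5 and 1170.5 bp in Sen1-AID, 3109.5 and 1842.5 bp in h1D-h2D, and 1506.5 bp in Top1-AID. The combined mutants had 3205 and 3795.5 bp with Sen1 depleted, and 2865 and 1794.5 bp with Top1-AID. The 3 Gal-HO libraries had medians of 1587 and 1248 bp in galactose and 1087 bp in dextrose. Replicates of the same strain differed by more than 1000 bp in 3 groups. Both h1D-h2D Sen1-AID values lay above those of every other library, of which h1D-h2D replicate 1 came nearest, and they rest on only 8 and 6 peaks. The narrowest peak was 1051 bp wide, at the chromosome VI centromere in Sen1-AID replicate 2.

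Cover fell away within 2 kb. In WT, 89.4 and 82.9% of the bases within 1 kb of a centromere start lay under a peak, and 32.9 and 11.8% of those between 1 and 2 kb. Between 2 and 7 kb the value was 9.14 and 4.22%, below the 13.5 and 10.6% outside the windows. The band from 2 to 7 kb, chosen after its values were seen, was covered less than the genome outside the windows in 11 of 14 libraries. The exceptions were h1D-h2D Sen1-AID replicate 1 (7.04 and 6.42%), h1D-h2D Top1-AID replicate 1 (6.66 and 5.36%) and h1D-h2D Top1-AID replicate 2 (3.99 and 3.96%). From 7 to 10 kb cover in WT was 21.0 and 14.1%. Within 1 kb, cover exceeded the genome outside the windows in all 14 libraries, from 37.2% in replicate 2 of h1D-h2D Sen1-AID to 98.2% in h1D-h2D replicate 1.

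**Figure D2:**
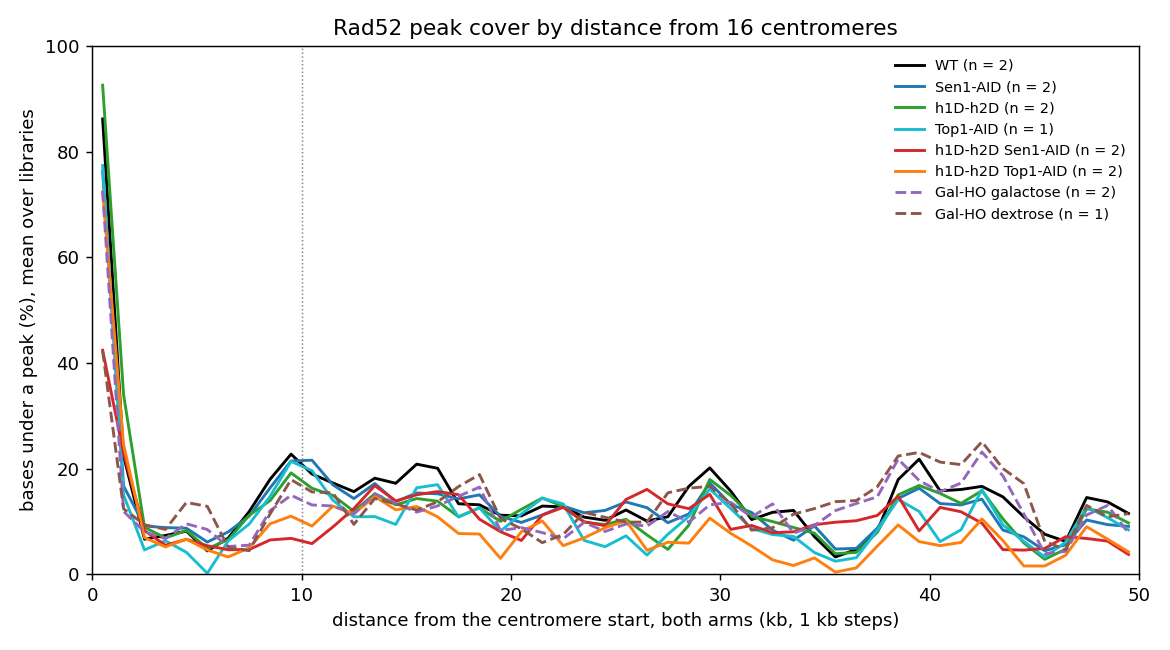
Percent of bases under a peak (y axis) by distance from the centromere start in 1 kb steps over both arms (x axis, kb), as the mean over the libraries of each group, with Gal-HO groups dashed and the window edge dotted. Each group has its highest value in the nearest kb, where WT reaches 86.2% and h1D-h2D Sen1-AID 42.4%, and WT rises again to 22.7% between 9 and 10 kb.

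Of the 194 peaks on centromeres, 16, or 8.25%, overlapped a tRNA, ribosomal protein, snoRNA or snRNA gene. Few such genes lie near a centromere start, so gene positions largely set this share. RPL14B was the nearest, at 495 bp, and SUF10 the next, at 3088 bp. Centromere peaks had a median width of 1856.5 bp. Of these 16, 13 were at RPL14B, a large-subunit ribosomal protein gene that ends 495 bp from the chromosome VIII centromere, and 3 were Gal-HO peaks that ran from the chromosome XIV centromere over the tRNA gene SUF10. Of the 151 peaks beside centromeres, 107, or 70.9%, overlapped such a gene. Among all window peaks the share was 36.7 and 40.7% in WT, against 56.4 and 65.1% of WT peaks outside the windows. In each of the 14 libraries it was lower inside the windows than outside. The peaks on centromeres enter the window share, so this gap also depends on gene positions.

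Some centromere peaks held a histone or ribosomal protein gene as well. On chromosome II (start 238207) the peak was wide, with a median of 4919 bp over 11 libraries, and in 10 of them took in HTA2 and HTB2, which encode histones H2A and H2B and lie to the left. In Gal-HO galactose replicate 2 the signal was listed as separate peaks, at II 234649–237121 over HTA2 and HTB2 and at II 237636–238875 over the centromere. Gal-HO dextrose had a peak at II 234581–237567 over the histone genes, at percentile 88.5 of its list, and none on the centromere. On chromosome VIII (start 105586) the median was 2818 bp over 13 libraries, and the peak took in RPL14B. RPL14B has a close paralog, RPL14A, on chromosome XI, and how reads that match both were assigned is not given in the sources used here.

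Most other centromere peaks reached into flanking genes, but on chromosome V the peak overlapped no gene in 5 of 14 libraries. At the chromosome VII centromere (start 496920) the peak overlapped ERG26, an enzyme of ergosterol synthesis, and EFM5 in all 14 libraries. At chromosome I (start 151465) it overlapped TFC3, a subunit of the RNA polymerase III factor TFIIIC, and in 6 libraries NUP60, a nuclear pore protein. At chromosome XIII (start 268031) it held YPT7, a Rab GTPase of the vacuole, in all 14 libraries and CDC5, the polo kinase, in 9. At chromosome X (start 436307) it held PRE3, a proteasome subunit, and AVT1, a vacuolar amino acid transporter. No annotated gene overlaps any of the 16 centromere starts.

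Scores are in the authors' unit with no stated scale, so each was turned into a percentile within its own list. The peaks on centromeres had a median percentile of 47.4 and 71.6 in WT, 66.4 and 65.3 in Sen1-AID, 46.6 and 92.6 in h1D-h2D, and 62.8 in Top1-AID. Among the combined mutants it was 68.4 and 55.9 with Sen1-AID, then 71.6 and 75.4 with Top1-AID. In Gal-HO it was 96 and 52.1 in galactose and 16 in dextrose. Replicates of h1D-h2D and of Gal-HO galactose thus stood over 40 points apart, and in each group the lower replicate did not exceed the higher WT value. In 13 of 14 libraries the median was higher on centromeres than beside them, as in WT with 27.3 and 55.1 beside them. Gal-HO dextrose was the exception, with 44.3 beside them.

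In h1D-h2D replicate 2, 10 of 16 centromere peaks were above the 90th percentile, and in Gal-HO galactose replicate 1, 13 of 16 were. Beyond these, h1D-h2D Top1-AID replicate 2 had 2, and the other 11 libraries had 0. The libraries with high centromere percentiles were among those with narrow peaks over the whole list, with medians of 1505, 1550.5 and 1400 bp. Sen1-AID replicate 2 had a narrower median, 1375.5 bp, and 0 centromere peaks above the 90th percentile. The part of peak width in these percentiles was not tested.

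**Figure D3:**
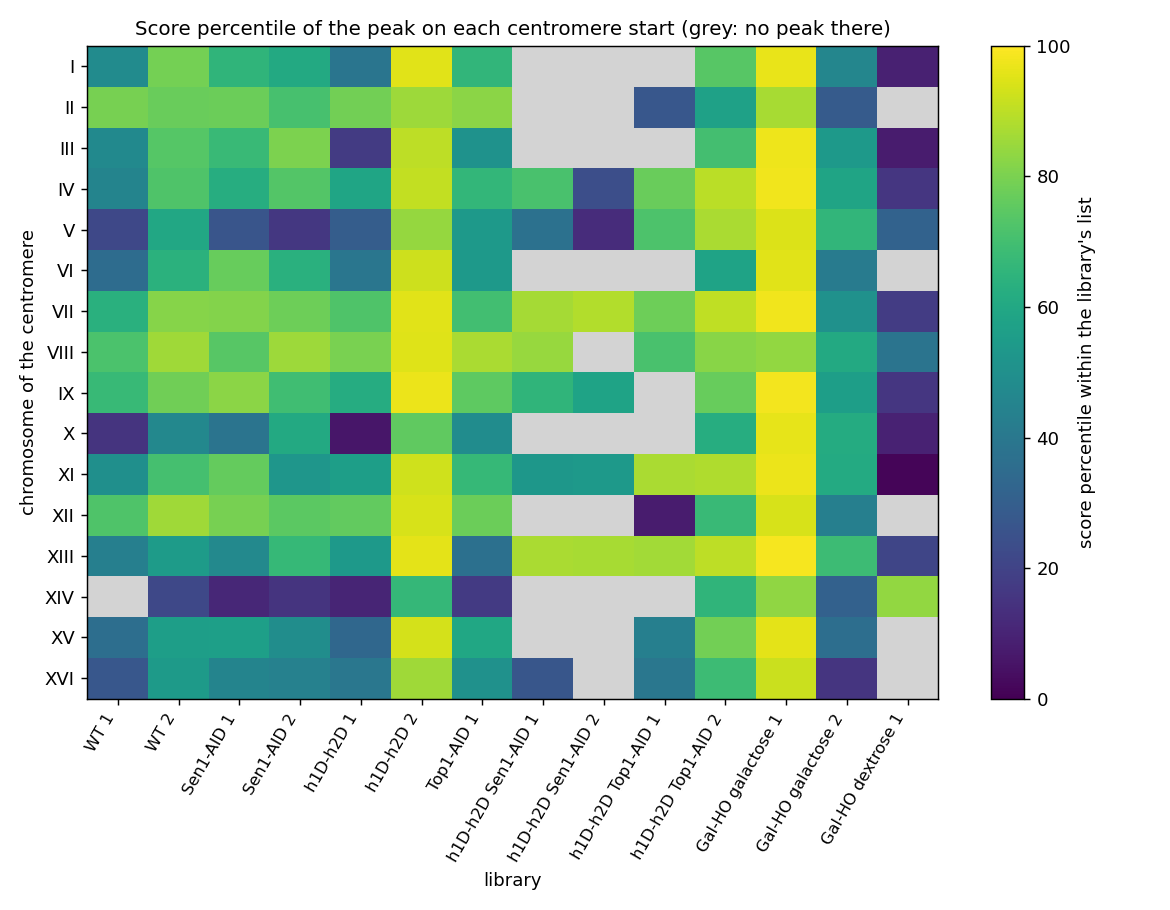
Colour gives the percentile, within its library's list, of the score of the peak on each centromere start, with chromosomes as rows and the 14 libraries as columns, and grey marks a centromere start with no peak. Columns differ more than rows, h1D-h2D replicate 2 and Gal-HO galactose replicate 1 are high throughout, Gal-HO dextrose is low, and the chromosome XIV row is low in most libraries.

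The centromeres differed among themselves. Over the 9 libraries with all 16 peaks, the chromosome VIII peak had the highest mean percentile, 81.6 ± 9.63 (SD, n = 9), followed by VII with 79.8 ± 14.6, IX with 77.3 ± 14.2 and XII with 77 ± 15.4. Each SD is a spread between libraries that all centromeres share, so it does not measure differences between centromeres. By rank within a library the order was another. The median rank was 3 for VII (1 to 9), 4 for XII (1 to 12), 5 for IX (1 to 8) and 5 for VIII. Chromosome XIV was lowest at 35.7 ± 28.2, and it ranked between 13 and 16 among the 16 in each of the 9 libraries. Its mean includes the wide Gal-HO galactose peaks described below. The next lowest were XVI at 55.0 ± 23.8, X at 55.1 ± 25.0 and V at 57.6 ± 28.5. Their median ranks were 13 (9 to 16), 14 (3 to 16) and 11 (2 to 15). Differences between centromeres were not tested. Chromosome VIII ranked anywhere from 1 to 15. Its peak took in RPL14B, with a median reach of 2000 bp to the left and 791 bp to the right. The score of that peak cannot be assigned to the centromere alone.

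The XIV centromere (start 628758) lies between DOM34, a factor that rescues stalled ribosomes, and CIT1, the mitochondrial citrate synthase. Its peak was at percentile 21.7 in WT replicate 2, 11.1 and 15.0 in Sen1-AID, 10.4 and 66.8 in h1D-h2D, 16.9 in Top1-AID and 65.4 in h1D-h2D Top1-AID replicate 2. The 3 Gal-HO peaks there, at 83.5 and 30.9 in galactose and 83.8 in dextrose, are between 6042 and 6570 bp wide and extend over CIT1, the tRNA genes SUF10 and YNCN0017W, and ATO2, an ammonium export protein. Their score cannot be assigned to the centromere alone.

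The design sets loss of RNase H joined with loss of Sen1 or Top1 against each change alone. In the combined mutants fewer window peaks were listed. Window peaks numbered 30 and 27 in WT, 34 and 26 in Sen1-AID, 31 and 27 in h1D-h2D, and 27 in Top1-AID. Both combined libraries with Sen1-AID had 13, and those with Top1-AID had 17 and 21. Every combined-mutant value was under every value of the other 7, so the groups do not overlap. The mean was 16 ± 3.83 (SD, n = 4) against 28.9 ± 2.91 (n = 7), a difference of -12.9. The exact two-sided permutation p was 0.00303, the smallest that 330 splits can give, with an adjusted p of 0.0545 over 18 tests, which misses the threshold of 0.05. Each library was a unit in this test, so replicates of the same strain counted as independent. When only the 254 top-scoring peaks of each list were used, the difference was 0.464 (exact permutation p 0.9, adjusted 1).

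**Figure D4:**
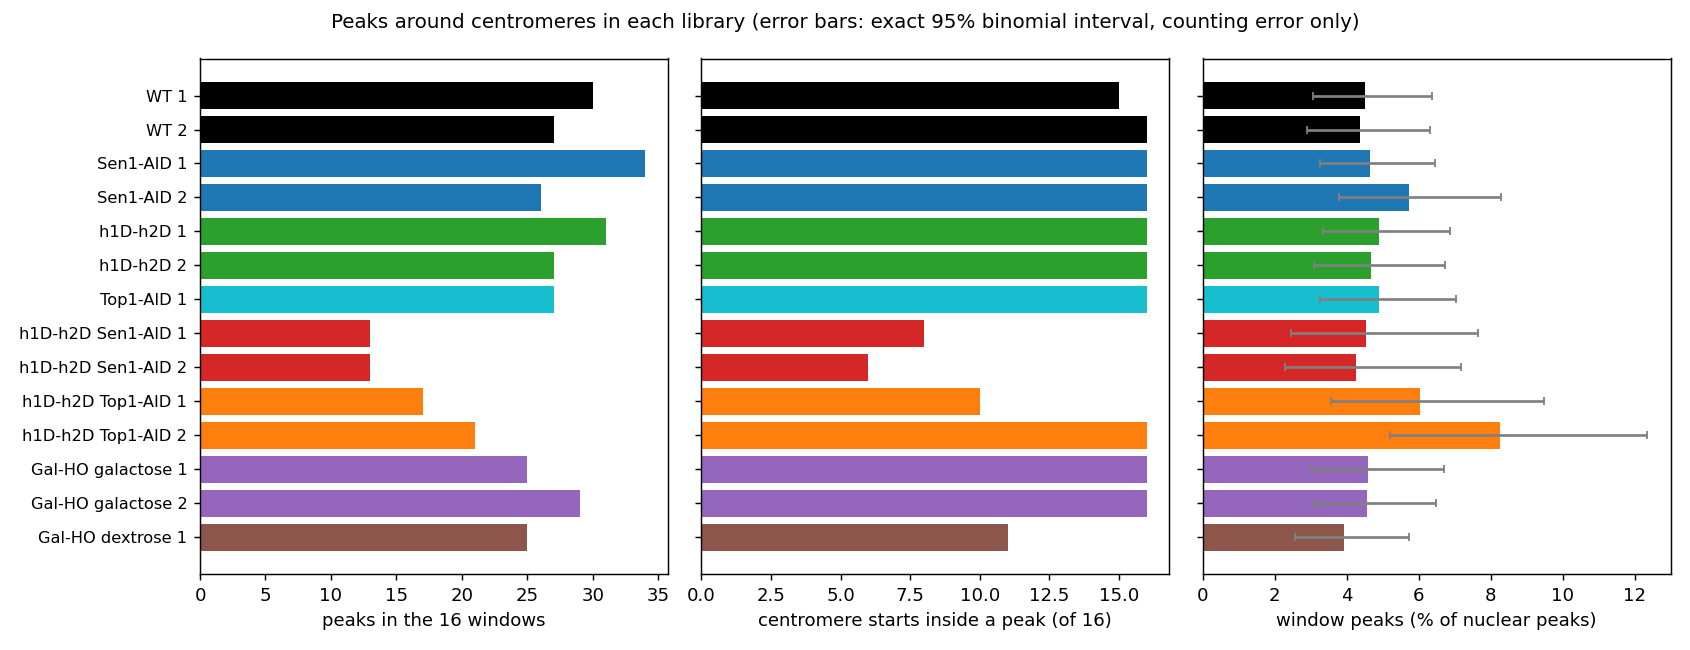
Bars give, for each of the 14 libraries, the number of peaks in the 16 windows, the number of centromere starts inside a peak, and window peaks as a percent of nuclear peaks with exact 95% binomial intervals. The combined mutants have 13 to 21 window peaks against 26 to 34 in the other auxin libraries, while their shares run from 4.26 to 8.27%.

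As a share of each list, the groups overlap. Window peaks made up 4.50 and 4.38% of the WT lists, 4.65 and 5.73% in Sen1-AID, 4.89 and 4.67% in h1D-h2D and 4.90% in Top1-AID. Combined mutants had 4.55 and 4.26% with Sen1-AID, then 6.03 and 8.27% with Top1-AID. Gal-HO had 4.60 and 4.55% in galactose and 3.92% in dextrose. The exact Clopper-Pearson interval at 95%, which covers counting error only, was 5.19 to 12.4% for h1D-h2D Top1-AID replicate 2 and 2.90 to 6.30% for WT replicate 2. The difference between combined mutants and others was 0.959 percentage points (exact permutation p 0.227, adjusted 0.409). With lists of 254 peaks, h1D-h2D Top1-AID had 5.91 and 8.27%, h1D-h2D 2.76 and 8.27%, and WT 2.76 and 5.91%. Gal-HO galactose had 8.27 and 3.54% on that basis. The high shares of h1D-h2D Top1-AID were thus not particular to it.

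Covered length also overlaps between the groups. Peaks covered 23.1 and 15.8% of window bases in WT, 24.5 and 12% in Sen1-AID, 24.6 and 16.6% in h1D-h2D and 16% in Top1-AID. In the combined mutants cover was 11.6 and 11.1% with Sen1-AID, then 15.4 and 14.4% with Top1-AID. The difference was -5.81 points (exact permutation p 0.0424, adjusted 0.15). Window cover exceeded cover outside the windows in all 14 libraries. The ratio of window to outside cover was 1.71 and 1.49 in WT, 1.57 and 1.95 in Sen1-AID, 2.03 and 1.86 in h1D-h2D and 1.53 in Top1-AID. In the combined mutants it was 1.81 and 1.70 with Sen1-AID, then 2.87 and 3.65 with Top1-AID. Over the combined mutants the excess of window cover over outside cover differed from the others by -0.329 points (exact permutation p 0.855, adjusted 0.855). These ratios come from lists of different lengths. With lists of 254 peaks, h1D-h2D Top1-AID had window cover of 13.1 and 14.4%, against 4.93 and 3.96% outside. On that basis h1D-h2D had 7.49 and 14.1%, against 5.91 and 4.58% outside.

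The number of centromere starts inside a peak was 10 ± 4.32 (n = 4) in the combined mutants and 15.9 ± 0.378 (n = 7) in the others. The difference of -5.86 had an exact permutation p of 0.0242 (adjusted 0.145), and the groups overlap, since h1D-h2D Top1-AID replicate 2 had all 16. Without that library the difference was -7.86. With lists of 254 peaks, the combined mutants had 8, 5, 9 and 16 centromeres on a peak. On the same basis Top1-AID had 10, h1D-h2D 5 and 16, Sen1-AID 8 and 13, and WT 5 and 11, so the groups overlap.

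The share of window peaks on tRNA, ribosomal protein, snoRNA or snRNA genes in the combined mutants was 30.2 ± 4.74% (n = 4) against 37.4 ± 2.98% (n = 7). The exact permutation p was 0.00606 and the adjusted p 0.0545, above the threshold. Both combined libraries with Sen1-AID had 30.8%, those with Top1-AID had 35.3 and 23.8%, and the others ran from 32.4 to 40.7%, so the groups overlap. Median width of window peaks was 2511 ± 548 bp in the combined mutants and 1936 ± 565 bp in the others, a difference of 575 bp (exact permutation p 0.13, adjusted 0.293). Their median percentile (51.8 ± 12.1 and 55.0 ± 16.5) and median distance to the centromere (980 ± 1961 and 585 ± 1120 bp) differed by less than the spread between libraries, with exact permutation p of 0.758 and 0.83. The distance is 0 wherever most window peaks contain the centromere start.

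Which centromeres kept their peaks was similar within h1D-h2D Sen1-AID. The centromeres of chromosomes IV, V, VII, XI and XIII were inside a peak in all 11 auxin libraries, and also in the 3 Gal-HO libraries. These are 5 of the 16 centromeres, beside 11.6% of all regions defined below that were in all 11. Chromosome IX had one in both h1D-h2D Sen1-AID libraries as well, and VIII and XVI in replicate 1. The centromeres of I, II, III, VI, X, XII, XIV and XV had none in either. On chromosome II the nearest h1D-h2D Sen1-AID peaks lay 39981 and 39893 bp from the centromere, and on chromosome I 30534 and 29207 bp. In h1D-h2D Top1-AID replicate 1 the centromeres without a peak were those of I, III, VI, IX, X and XIV.

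Some peaks of the combined mutants ranked high in their lists. On chromosome XIII the percentile was 87.4 and 86.9 with Sen1-AID, and 86.2 and 90.2 with Top1-AID. In WT it was 43.1 and 54.8, in Sen1-AID 47.2 and 67.0, in h1D-h2D 53.6 and 95.8, and in Top1-AID 37.0. Percentiles in lists of different lengths cannot show whether signal changed. On chromosome VII the peak was 1426 and 1897 bp wide in h1D-h2D Sen1-AID, at percentiles 86.4 and 88.5, where WT had 2909 and 1625 bp at percentiles 63.5 and 81.7. At chromosome IX the h1D-h2D Sen1-AID peaks were wider, at 3744 and 4073 bp, and reached MPH1, a DNA helicase, while those of WT were 1933 and 1452 bp wide and did not. The peaks of h1D-h2D replicate 1, 3948 bp wide, and of h1D-h2D Top1-AID replicate 2, 2492 bp wide, reached it too.

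Merging the peaks of the 11 auxin libraries gave 853 regions, of which 38 touched a window and 16 contained a centromere start. At 4 of the 38, on chromosomes III, V, VI and XV, a merged region reaches past the window edge and some libraries count as present through a peak outside the window. Peaks inside the window at those of V, VI and XV came from 5, 1 and 0 of the 7 other auxin libraries, though each counts as present in all 7. In all 7 other auxin libraries 27 of the 38 were present, 15 of them on centromeres, against 41.7% of all regions. At Fisher's exact test with an adjusted p at or under 0.05, 3 of the 38 regions had fewer combined-mutant libraries than others (8.56% of all regions), and 0 of the 3 contained a centromere. None of the 38 was more often present, where the share of all regions was 0%. At an unadjusted p under 0.05, 8 were less often present, 4 of them on centromeres (23.2% of all regions), and 0 more often (0.117%). Those 4 were the centromere regions of I, III, VI and X, each in 7 of 7 other libraries and 1 of 4 combined mutants, namely h1D-h2D Top1-AID replicate 2. The 8 also include VI 136806–138594, where peaks inside the window came from 1 of 7 other libraries and 0 of 4 combined mutants.

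The 3 regions lost in all combined mutants were those of TIM10 and the tRNA gene YNCH0003C (VIII 112975–116872), SUF10 and YNCN0017W (XIV 631027–633457), and SIS1 (XIV 617813–620597). TIM10 and YNCH0003C themselves lie outside the window, which ends at VIII 115586, though the peaks of the 7 other libraries reached into it. TIM10 encodes a chaperone of mitochondrial import and SIS1 an Hsp40 chaperone, and SUF10 and YNCN0017W are tRNA genes. The merged regions also touch GPA1, which was under a peak in 1 of the 7 other libraries, and LST8, which was in 5 of 7. Each region was present in 7 of 7 other libraries and 0 of 4 combined mutants (Fisher's exact p 0.00303, adjusted 0.0354). The 3 calls fell to 0 when any 1 WT, h1D-h2D or combined-mutant library was left out, and at equal list lengths. Of the 356 regions in all 7 other libraries, 20.5% were in no combined-mutant library, against 0 of the 15 on centromeres. This 0 rests on h1D-h2D Top1-AID replicate 2: among the remaining 3 combined libraries, a selection made after seeing the data, 4 of the 15 were in none, beside 24.7% of all 356 regions. In all 4 combined libraries 5 of the 15 were present, beside 27.8% of the 356.

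The combined-mutant libraries met different numbers of centromere regions, also within h1D-h2D Top1-AID, and the strains were not tested against each other. In h1D-h2D Top1-AID replicate 2 the 254 peaks, the fewest of any library, met 15 of the 15 centromere regions that both WT libraries had, and 39.6% of all 558 regions that both WT libraries had. At the other regions that touch the windows it met 6 of 13, where a peak outside the window also counts. Replicate 1 of the same strain met 10 of 15 centromere regions and 43.5% of all regions, and h1D-h2D Sen1-AID met 8 and 6 of 15, with 39.8 and 43.0% of all. The lists with a single change, Sen1-AID, h1D-h2D and Top1-AID, met 15 of 15, where the shares over all regions were 95.2 and 75.1% for Sen1-AID, 95.2 and 89.96% for h1D-h2D, and 85.8% for Top1-AID. Gal-HO galactose met 15 of 15 in both libraries, with 72.2 and 76.2% over all, and Gal-HO dextrose 11 of 15, with 76.9%.

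**Figure D5:**
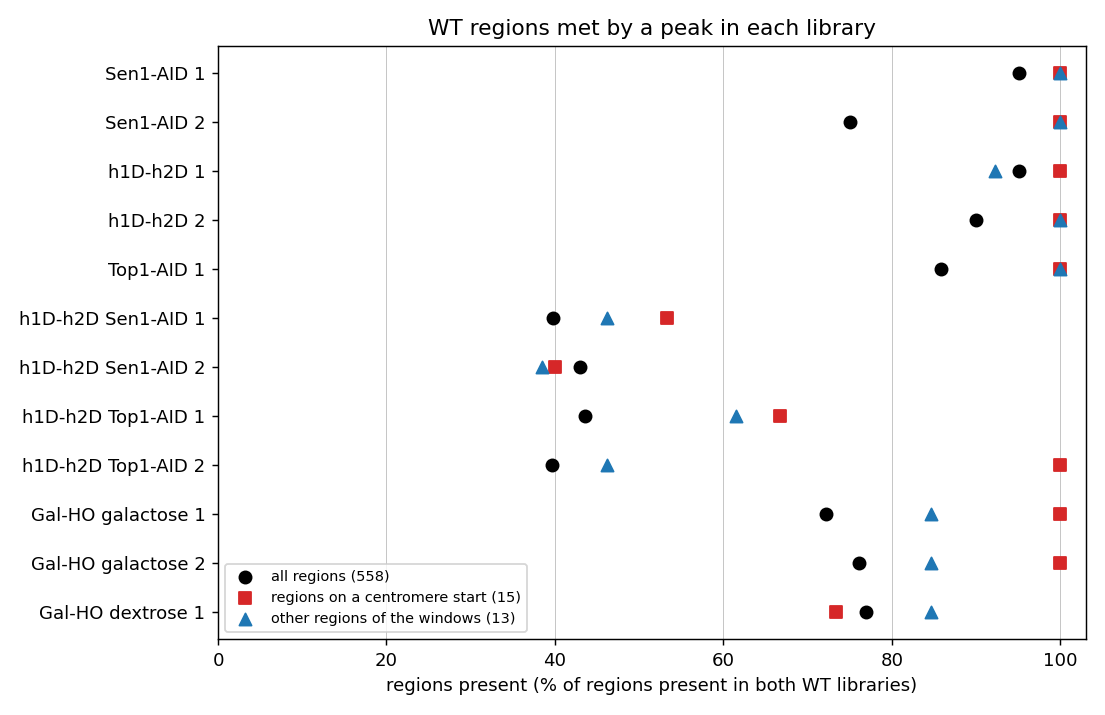
For each library outside WT, points give the percent of regions present in both WT libraries that a peak of that library met (x axis), for all 558 regions (black circles), the 15 regions on a centromere start (red squares) and the 13 other window regions (blue triangles). A merged region counts as met through any peak on it, also one outside the window. The squares stand at 100% for every library with a single change and for Gal-HO galactose, at 100% and 66.7% for h1D-h2D Top1-AID, and at 53.3% and 40% for h1D-h2D Sen1-AID.

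Group by group against WT, of the 28 window regions in both WT libraries 13 were absent from both h1D-h2D Sen1-AID libraries, 7 of them on centromeres, and the same rule took 52.7% of all regions. From both h1D-h2D Top1-AID libraries 3 were absent, 0 of them on centromeres, beside 49.8% of all regions. Sen1-AID, h1D-h2D and Top1-AID lost 0 of the 28, beside 2.69%, 2.87% and 14.2% of all regions. These counts take a region as present through any peak on it, also one outside the window. At VI 136806–138594 and XV 336319–341049, peaks inside the window came from only 1 and 0 of the 7 other auxin libraries. Present in every library of the group were 15 of the 15 WT centromere regions in Sen1-AID (72.9% of all regions), 15 in h1D-h2D (88% of all) and 15 in Top1-AID (85.8% of all). In h1D-h2D Sen1-AID 6 of 15 were (35.5% of all), and in h1D-h2D Top1-AID 10 of 15 (33% of all). Presence in 2 libraries against 2 was not tested, since the smallest exact p is 0.333. The only window region in both libraries of a mutant and in no WT library was in h1D-h2D Sen1-AID, at DJP1 and IST3 (IX 363770–365830), beside 3.75% of all regions. IST3 acts in splicing. The region also touches PAN1, which another peak met in both WT libraries. In the 38 window regions the other mutant groups had 0 new ones, beside 0.586% of all regions in Sen1-AID, 0.938% in h1D-h2D, 1.41% in Top1-AID and 0.469% in h1D-h2D Top1-AID.

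Loss of RNase H across backgrounds was compared over 6 libraries without it and 5 with it. Window peaks numbered 20.3 ± 7.45 (SD, n = 6) and 28.8 ± 3.27 (n = 5), with an exact permutation p of 0.0563 (adjusted 0.15). Centromere starts inside a peak numbered 12 ± 4.56 and 15.8 ± 0.447 (exact permutation p 0.182, adjusted 0.364). The 6 libraries without RNase H include the 4 combined mutants, and both h1D-h2D libraries had all 16 centromeres on a peak. None of the 9 measures passed the adjusted threshold in either comparison.

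Of the 6 tRNA genes in the windows, the median library covered 6, against 72.7% of the 269 tRNA genes elsewhere, and the lowest covered 2. YNCM0009C on chromosome XIII was covered in all 11 auxin libraries, and YNCF0005C on VI in 10. SUF10 and YNCN0017W on XIV were covered in 7 of 7 others and 0 of 4 combined mutants. SUF2 on III was covered in 6 of 7 and 1 of 4, and YNCP0008C on XVI in 7 of 7 and 2 of 4. Both ribosomal protein genes, RPL14A and RPL14B, were covered in 7 of 7 others and in 3 of 4 combined mutants. The snoRNA genes SNR18, SNR43 and SNR87 were covered in 7 of 7 others, and in 2, 0 and 1 of 4 combined mutants. Outside the windows the combined mutants covered 41.5 to 51.9% of 135 ribosomal protein genes and 57.0 to 63.3% of 79 snoRNA and snRNA genes.

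Of the 180 other genes in the windows, between 29 and 71 were covered per library. The highest share was 39.4% and the lowest 16.1%, where genes of this kind outside the windows ranged from 5.51 to 24.3%. By mean percentile over the auxin libraries that hold a region, which differ between regions, the highest window region away from a centromere was that of TRN1, SSA1, EFB1 and SNR18 on chromosome I (136899–144187), at 79.8 over 9 libraries, the third highest of the 38 regions. SSA1 encodes an Hsp70 chaperone and EFB1 a translation elongation factor. Of the named genes, TRN1 and SSA1 lie outside the window, which starts at I 141465. This region was in 7 of 7 others, both h1D-h2D Top1-AID libraries and neither h1D-h2D Sen1-AID library. RPL14A with SNR87 (XI 429506–434806) followed at 68.7. The other 8 of the 10 highest were the centromere regions of VIII (81.7), VII (80.5), IX (73.2), II (70.7), XII (70.6), XIII (68.1), XI (67.9) and IV (66.5).

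Away from the centromere, the tRNA gene YNCM0009C (XIII 258405–259931) lay in a region present in all 11 auxin libraries. The region of GCN4 (V 136771–144815), the activator of amino acid synthesis genes, was in all 11 too, but its peak reached into the window in 5 of 7 others and 0 of 4 combined mutants. The 5 remaining regions in all 11 were the centromere regions of IV, V, VII, XI and XIII, which makes 7 of 38 with the GCN4 region counted, beside 11.6% of all regions. The region of AEP3, LSP1 and ULA1 (XVI 549182–552171) was in 4 of 4 combined mutants and 4 of 7 others (Fisher's exact adjusted p 0.453). LSP1 is an eisosome protein.

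In the Gal-HO strain, HO cuts the mating-type locus in galactose. Galactose libraries had 25 and 29 window peaks and dextrose 25. The centromere starts of II, VI, XII, XV and XVI lay inside a peak in both galactose libraries and not in dextrose. At the 11 others, dextrose peaks were low in their list apart from XIV (83.8), VIII (38.3) and V (31.6), and the lowest was XI at 1.26. On chromosome I the percentile was 96.7 and 45.8 in galactose and 9.26 in dextrose. On chromosome IX it was 98.3 and 56.2 in galactose and 16 in dextrose. The dextrose list was as long as that of galactose replicate 2, at 637 peaks each. Of the 13 other WT regions that touch a window it met 11, as both galactose libraries did, with peaks outside the window counted. With 2 libraries against 1 there is no test. Sugar and HO induction changed together and cannot be told apart.

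Members near the window edge were few. Peaks whose nearest base lay 9 to 10 kb from the centromere numbered 17, with a median percentile of 59.2 and a median width of 1829 bp. Those from just past 10 kb to 11 kb numbered 30, with medians of 46.3 and 2466 bp.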

How the data were processed

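Each library is a deposited peak list with chromosome, start, end, name and score. Per the labels' protocols, cells were fixed with paraformaldehyde and libraries made from sheared chromatin. Per the submitters' processing notes, Bowtie2 and MACS2 were used with build sacCer3; versions, any control library and the threshold are not given in the sources used here. The score is the authors' unit, starts at about 50.02, and served here only for ranks inside each list. Read depth is unknown, and the length of a list limits the precision of its share. In total 7181 peaks were read, 5 of them mitochondrial and left out.

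Centromere starts were given with the choice of members. Genes (6431 nuclear) were placed with a RefSeq annotation table of R64, the release behind sacCer3. Chromosome length was taken as the last gene or peak end, 12057 kb in all. Members and lists were chosen with earlier results of these data known. The split into peaks on and beside centromeres, the distance bands and the regions met per library were added after values were seen. Named are all centromeres, window regions in all 11 auxin libraries, in all 7 others and 0 combined mutants or new in a mutant, genes at peaks on centromeres, tRNA, ribosomal protein, snoRNA and snRNA genes, and the 10 regions of highest mean percentile. Genes at a centromere were named for some chromosomes only.

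Library values (9 measures) were compared by exact two-sided permutation of labels for 2 contrasts, adjusted over 18 tests by Benjamini and Hochberg. Labels moved over single libraries, not over strains. Regions were tested by Fisher's exact test, adjusted over 853 regions. The test code was checked on simulated lists. Python 3.11.15, pandas 2.3.3, NumPy 2.4.6, SciPy 1.17.1 and matplotlib 3.10.9 were used. Alternatives were a score limit at the pooled median, equal list lengths of 254 peaks, joining of peaks within 1 kb, windows of 5 and 20 kb, membership by midpoint or by 500 bp, bins of 5 kb for regions, a replicate block, and each library left out.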

Additional observations from a re-analysis of the deposited data

Results flagged for a closer look

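Among 36 sets of 4 to 7 libraries, 6 had a value far from the others, and the sets share libraries. A chance rate of about 1 in 20 does not apply where most values are tied. Distances tied at 0 and centromere counts tied at 16 are such cases, so the number of flags shows no excess. The median distance of window peaks to the centromere was 3921 bp in h1D-h2D Sen1-AID replicate 2, both among the combined mutants and among the libraries without RNase H, because 7 of its 13 window peaks lay beside a centromere while the other libraries of both sets have a median of 0. In Sen1-AID replicate 1 it was 2924 bp, with 18 of 34 peaks beside a centromere. WT replicate 1 had 15 centromere starts inside a peak, where the other 6 single-change and WT libraries had 16, both among these 7 libraries and among the 5 with RNase H. At the missing one, on chromosome XIV, its nearest peak lay 2346 bp away. The share of window peaks was 5.73% in Sen1-AID replicate 2, the highest of the 7.

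The share of window peaks was 4.65 and 5.73% in Sen1-AID, above the 4.50 and 4.38% of WT. In h1D-h2D Sen1-AID it was 4.55 and 4.26%, below the 4.89 and 4.67% of h1D-h2D. The difference of these differences was -1.13 percentage points and was not tested. It is smaller than the width of the counting interval of any single library.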

How the results depend on the processing

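The numbers below are differences, combined mutants minus the other auxin libraries or, for RNase H, libraries without minus libraries with it. At equal list lengths the difference in window peaks was 0.464, in window cover 2.40 points, in excess cover 2.75 points and in percentile 11.3, all of opposite sign to the full lists; for RNase H it was 0.833 peaks, 2.76 points of cover and 0.433 centromeres. With only peaks above the pooled median score, the percentile differed by 5.95 and the RNase H excess cover by -0.207. The percentile difference was 1.66 in 5 kb windows and 0.404 in 20 kb windows, where excess cover differed by 0.836 and distance by -147 bp. Counting peaks by midpoint gave an RNase H distance of 327 bp, and asking for 500 bp in the window a combined distance of -1.59 bp. None of these reversed values passed the threshold in any setting, and the cause was not tested.

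Leaving out 1 library at a time gave differences in window peaks from -14.5 to -11.9, with adjusted p from 0.0429 (exact permutation, without Sen1-AID replicate 1) to 0.15, and in class share from -8.91 to -5.08 points, with 0.0429 without the same library. Excess cover ran from -1.30 to 0.672, distance from -585 to 785 bp, percentile from -8.81 to 1.81, RNase H distance from -819 to 360 bp and RNase H percentile from -3.02 to 6.27. Of the 3 window regions called by Fisher's exact test, 0 remained called with the score limit and 0 at equal lengths; 1 was called in 5 kb windows, and from 0 to 4 with a library left out. Where fewer libraries enter, the smallest possible p is larger.

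To see whether same-numbered libraries went together, a correlation over the 853 regions was taken for each pair of groups with 2 replicates. Each r belongs to a pair of groups, not to a pair of libraries. It was above 0.1 in 3 of 10 pairs, those among WT, Sen1-AID and h1D-h2D (r 0.270 to 0.305). In the 7 pairs with a combined mutant r was 0.00026 to 0.0586, so the numbers did not go together across all groups. With the number as a replicate block, the difference in window peaks stayed -12.9 (exact permutation p 0.00667, adjusted 0.12) and 0 regions were called. List length and the lack of read depth limit all counts, and 4 combined libraries limit the tests.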
